A study of Mus musculus with 61 samples.

Results

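Nav1, Nppc, Rai14 and Ecm1 are 4 of the 24421 genes in the deposited count tables, found by their symbols. They were picked from measured values: Nav1 because it was lost without Stat5a/b, Nppc and Rai14 because both STAT5B N642H and STAT5B Y665F exceeded unmutated STAT5B, and Ecm1 because it fell in T cells of Y665H mice. The comparisons that made these choices are described without a test, and all other comparisons are tested.

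RNA was measured by ribosome-depleted total RNA sequencing in 61 libraries from C57BL/6 mice of 2 months. In 30 libraries, naive CD4 T cells were sorted from pooled lymph nodes and spleens. They were activated with antibodies to the TCR and CD28, transduced with a retrovirus, kept for 48 h with IL-2 and sorted again for GFP. The vector was empty (EV) or carried unmutated STAT5B or its mutants N642H, Y665F and Y665H, each in cells titled S5KO, here called Stat5a/b-null, and in cells titled WT, with 3 libraries per group. In the null cells a Cd4-Cre transgene deletes floxed Stat5a/b in developing CD4 and CD8 T cells. The genotype label reads Stat5a/b flox/flox for all 30 of these libraries, those titled WT included, so whether the WT cells carry the floxed alleles or Cd4-Cre is not settled by the labels. T cells isolated from spleens of WT, STAT5B-Y665H and STAT5B-Y665F mice gave 4 libraries each after 24 h in both IL-2 and IL-7, while STAT5B-Y665F T cells without interleukin, which the study describes as sequenced straight after isolation, gave 3. Unstimulated spleens gave 4 WT, 5 STAT5B-Y665H and 7 STAT5B-Y665F libraries, titled splenocyte and listed under the tissue spleen. The labels do not give the zygosity of the mutant mice. No library is described as coming from a named animal or donor, so p-values measure the spread between libraries, which may be technical.

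STAT5A and STAT5B are transcription factors that cytokine receptors such as those for IL-2 and IL-7 activate by tyrosine phosphorylation. The activated dimers enter the nucleus and bind GAS elements, and in T cells they drive genes for survival, growth and feedback inhibition. Nav1 encodes a neuron navigator, a protein of growing microtubule ends best known from migrating neurons. Nppc encodes the precursor of C-type natriuretic peptide, a secreted ligand of the receptor guanylate cyclase Npr2 that is cleared by Npr3. Rai14 encodes an ankyrin repeat protein that binds actin filaments, and Ecm1 encodes a secreted glycoprotein linked to the exit of Th2 cells from lymph nodes.

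On the mm10 build, which is GRCm38, all 4 genes lie on the minus strand. GENCODE M21 places Nav1 at chr1:135434580-135607295, Nppc at chr1:86666291-86670571, Rai14 at chr15:10568969-10714624 and Ecm1 at chr3:95734147-95739569. Their exons cover 17303, 1042, 8462 and 2521 bases. The antisense gene Gm4793 covers 933 exon bases of Nav1, and the antisense gene Gm10389 covers 89 exon bases of Rai14. The sources used here do not state whether counting used strand, so reads of these partners cannot be told apart from those of Nav1 and Rai14. The miRNA gene Mir7014 covers 63 exon bases of Ecm1 on the same strand.

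The sequences upstream of the start sites are shown because each of the 4 genes was called with at least 1 of the STAT5B constructs. The RefSeq promoter table, on GRCm38.p6, held 1 start for Nav1, Nppc and Ecm1 and 2 for Rai14. Each line holds the 250 bases before a start, 5′ to 3′ on the gene's strand. Capitals mark TATAAA, found at Nppc, the second Rai14 start and Ecm1, and matches with 1 mismatch to the GAS motif TTCNNNGAA, found at Nav1 and the second Rai14 start.
Nav1, chr1:135585356-135585605, minus strand: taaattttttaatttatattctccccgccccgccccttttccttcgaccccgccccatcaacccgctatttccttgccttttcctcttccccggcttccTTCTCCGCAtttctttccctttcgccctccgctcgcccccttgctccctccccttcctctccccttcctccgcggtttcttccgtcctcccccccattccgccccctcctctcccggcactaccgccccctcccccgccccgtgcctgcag
Nppc, chr1:86670574-86670823, minus strand: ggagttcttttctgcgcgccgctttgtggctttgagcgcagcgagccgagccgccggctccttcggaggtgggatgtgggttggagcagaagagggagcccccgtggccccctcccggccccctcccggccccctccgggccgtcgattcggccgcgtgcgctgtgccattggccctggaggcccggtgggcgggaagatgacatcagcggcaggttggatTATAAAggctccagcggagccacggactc
Rai14, second start, chr15:10713541-10713790, minus strand: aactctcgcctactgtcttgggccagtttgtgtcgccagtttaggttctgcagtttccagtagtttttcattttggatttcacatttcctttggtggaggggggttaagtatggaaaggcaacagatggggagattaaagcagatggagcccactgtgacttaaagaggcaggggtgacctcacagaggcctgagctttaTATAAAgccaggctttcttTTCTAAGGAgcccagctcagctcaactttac
Ecm1, chr3:95739570-95739819, minus strand: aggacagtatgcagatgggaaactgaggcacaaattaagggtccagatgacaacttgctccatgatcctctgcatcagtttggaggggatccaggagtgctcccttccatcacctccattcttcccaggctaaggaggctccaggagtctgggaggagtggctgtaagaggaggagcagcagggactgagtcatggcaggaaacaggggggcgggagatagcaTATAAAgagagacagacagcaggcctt

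The first Rai14 start held a match with 1 mismatch at position -2 across the start itself, within chr15:10714081-10714110, minus strand: gacccacctcTTGACTGAActtggaaaagc. In windows of 300 bases, from 250 before to 50 after a start, and on both strands, TTCNNNGAA occurred in 0 of the 5 windows of the 4 genes and in 8.3% of 32851 windows of all genes. With 1 mismatch allowed it occurred in 71.4% of all windows, so the capitalised matches are common letters. TATAAA, a motif added after the sequences were seen, stood on the gene's strand in 3 of the 5 windows, at -29 in Nppc, -50 at the second Rai14 start and -27 in Ecm1, beside 8.32% of all windows. On both strands it occurred in 4 of 5 windows and in 13.6% of all windows. The Nav1 start and both Rai14 starts lie inside the GENCODE genes, and the RefSeq genes of Nav1, Rai14 and Ecm1 reach farther upstream than these starts, so starts there are not covered.

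Total reads on genes were 18825994 to 49850689 in CD4 T cells, 2017012 to 27394249 in splenic T cells and 24203179 to 43330536 in spleens. Levels are in CPM, a gene's reads scaled to a fixed library total, with TMM factors set within each of these 3 sets, so levels from different sets were not scaled together. Stat5b itself was at 2.78, 5.30 and 9.49 CPM in null cells with EV and between 186 and 365 CPM in null cells with any construct. Stat5a, which no construct carries, was at 1.70 to 14.9 CPM in null cells, the highest in replicate 3 with Y665H, and at 99.5 to 179 CPM in WT cells. B cell, erythroid, neutrophil, macrophage and megakaryocyte marker lists each summed to at most 8.59 CPM in any CD4 library, beside 2851 to 4597 CPM for the 8 T cell markers. In bulk samples, fewer cells that express a gene and less RNA per cell cannot be told apart.

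Nav1 was nearly absent from Stat5a/b-null CD4 T cells and returned with STAT5B. With EV it stood at 0.137, 0.232 and 0.587 CPM in null cells, from 5, 8 and 17 reads, and at 64.0, 45.3 and 45.9 CPM in WT cells. This difference, a mean of 0.616% of the WT level, chose the gene. The lowest WT library lay far above the highest null library, and the null library with the most Nav1 reads was also the null EV library with the most Stat5b.

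Each construct was then compared with EV in null cells, and these comparisons share the null EV libraries with the choice of Nav1. With STAT5B, Nav1 was at 13.7, 11.5 and 4.52 CPM, a log2 fold change of 5.01 (standard error (SE) 0.57, adjusted p = 7.77e-05, edgeR quasi-likelihood test with Benjamini-Hochberg adjustment over all genes). With N642H it was at 30.5, 26.3 and 13.9 CPM (6.23, SE 0.57, adjusted p = 2.16e-06), and with Y665F at 26.8, 27.6 and 9.64 CPM (6.09, SE 0.57, adjusted p = 3.17e-06). Replicate 3 was the lowest library of each of these 3 groups and the highest of the EV group, and none of the 3 groups overlapped EV.

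Y665H brought back little Nav1. Its libraries held 1.11, 1.61 and 1.56 CPM, above every EV library but below every STAT5B library. The change against EV, 2.22 (SE 0.62), did not pass the test (adjusted p = 0.896), whereas the change against STAT5B, -2.79 (SE 0.46), did (adjusted p = 0.0150). That call was lost without STAT5B replicate 1 (-2.48, adjusted p = 0.113) or 2 (-2.62, 0.0628), and without Y665H replicate 1 (-2.60, 0.0892) or 3 (-2.83, 0.0979).

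Against the level of WT cells with EV, null cells with STAT5B held 19.2% ± 9.29 (SD, n = 3) of the Nav1 level, those with N642H 45.6% ± 16.7, those with Y665F 41.3% ± 19.6 and those with Y665H 2.76% ± 0.539. The shortfall passed the test with STAT5B (log2 fold change -2.37, SE 0.38, adjusted p = 0.000827) and with Y665H (-5.19, SE 0.45, adjusted p = 1.71e-08). With N642H (-1.13, SE 0.36, adjusted p = 0.132) and Y665F (-1.27, SE 0.36, adjusted p = 0.0701) it did not. All 12 construct libraries of the null cells lay below the 3 WT libraries with EV. These WT libraries were also used to choose Nav1, so the shortfalls are not independent of the choice.

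N642H and Y665F exceeded STAT5B in Nav1 by 1.22 (SE 0.40, adjusted p = 0.574) and 1.08 (SE 0.40, adjusted p = 0.902) on the log2 scale, and neither passed the test. With the replicate block the N642H difference was called (1.25, adjusted p = 0.0296). The N642H libraries all lay above the STAT5B libraries, and 2 of the 3 Y665F libraries did.

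In WT cells no construct changed Nav1 past the test. The 12 construct libraries ranged from 30.7 to 77.4 CPM around the 45.3 to 64.0 CPM of EV, and the changes against EV ran from -0.36 (SE 0.27, adjusted p = 0.610) with Y665F to 0.19 (SE 0.27, adjusted p = 0.911) with N642H. The response differed between backgrounds by -5.12 with STAT5B (SE 0.65, adjusted p = 9.60e-05), -6.09 with N642H (SE 0.65, adjusted p = 2.45e-06) and -6.49 with Y665F (SE 0.65, adjusted p = 8.42e-07), each the WT response minus the null response in an interaction test. The difference between null and WT cells with EV, which chose Nav1, is a term of each of these values, so they are a description and no separate evidence. For Y665H the difference was -2.05 (SE 0.71, adjusted p = 1.00). The other 3 genes were not called with any construct, beside 0.0956%, 0.3%, 0.382% and 0.00455% of all genes called lower for STAT5B, N642H, Y665F and Y665H.

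**Figure D1:**
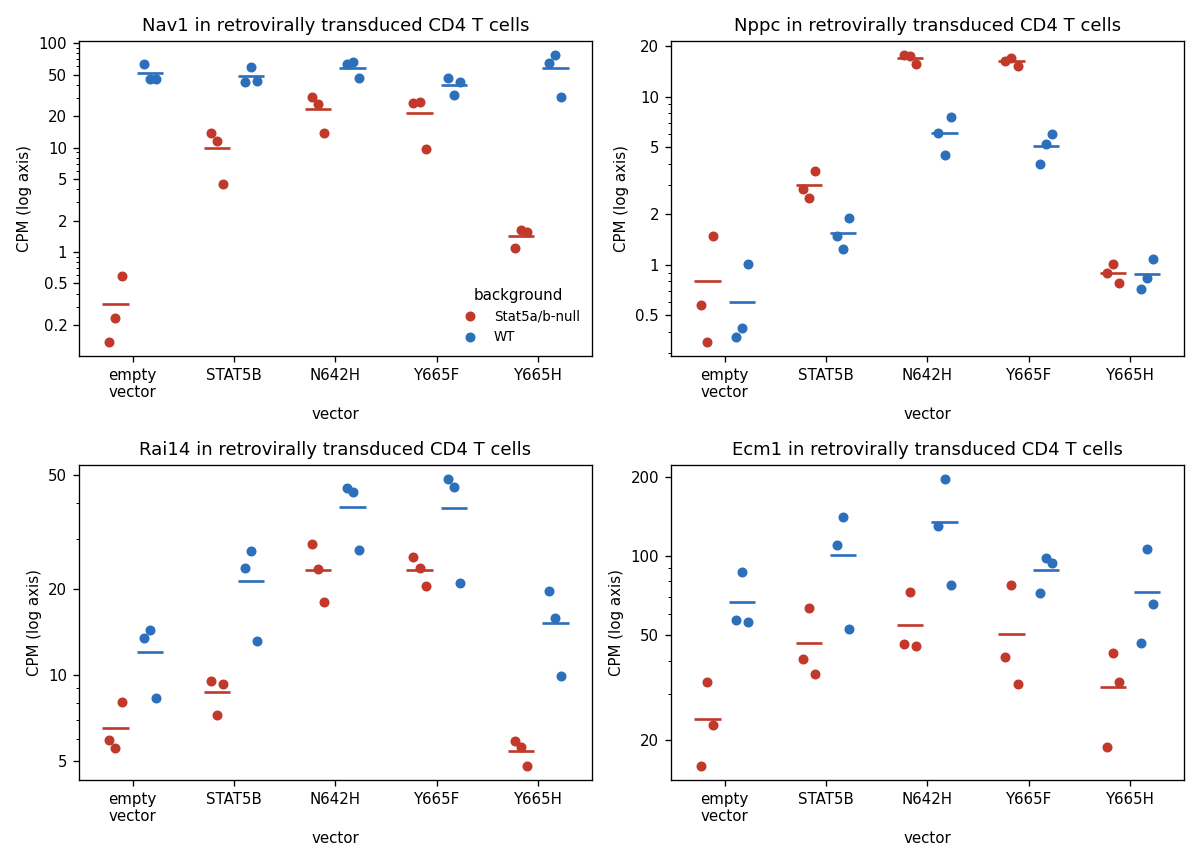
CPM of the 4 genes on log axes in each CD4 T cell library, with Stat5a/b-null cells in red and WT cells in blue, the vector on the horizontal axis, points for libraries and lines for the mean of 3. Nav1 rises from a mean of 0.319 CPM with EV to 23.6 CPM with N642H in null cells and stays between 30.7 and 77.4 CPM in WT construct libraries, whereas Nppc and Rai14 are highest with N642H and Y665F in both backgrounds.

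Nppc was raised by N642H and Y665F in both backgrounds and did not fall without Stat5a/b. With EV it stood at 0.577, 0.348 and 1.48 CPM in null cells and at 0.372, 0.422 and 1.01 CPM in WT cells. These 2 groups overlapped, with a difference of 0.36 (SE 0.38, adjusted p = 0.603). Unlike Nav1, Nppc was low with EV in both backgrounds.

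In null cells Nppc was at 2.84, 2.4997 and 3.61 CPM with STAT5B, at 17.7, 17.5 and 15.7 CPM with N642H and at 16.3, 17.0 and 15.3 CPM with Y665F. The gap of N642H and Y665F over STAT5B, 2.49 and 2.43 on the log2 scale, chose the gene and is given without a test. Against EV, Nppc rose by 1.91 with STAT5B (SE 0.32, adjusted p = 0.00559), 4.40 with N642H (SE 0.33, adjusted p = 1.90e-07) and 4.34 with Y665F (SE 0.33, adjusted p = 2.36e-07), all in libraries that the choice also used. The call with STAT5B was lost when the 2 groups were fitted alone (1.89, adjusted p = 0.0634) and without EV replicate 1 (1.70, adjusted p = 0.0533).

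With Y665H in null cells, Nppc overlapped the EV level, at 0.898, 1.01 and 0.778 CPM. The difference from EV was 0.21 (SE 0.35, adjusted p = 0.959). In a comparison that shares the STAT5B libraries with the choice, Nppc was lower than with STAT5B (log2 fold change -1.70, SE 0.31, adjusted p = 0.0267), and all 3 Y665H libraries lay below the STAT5B libraries. Of the 6 libraries, leaving out Y665H replicate 2 alone kept the call. Leaving out any of the 3 STAT5B libraries, or Y665H replicate 1 or 3, ended it (log2 fold change -1.77 to -1.55, adjusted p between 0.0621 and 0.167).

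The WT cells were not used to choose Nppc. There it was at 1.48, 1.25 and 1.89 CPM with STAT5B, at 6.06, 4.49 and 7.58 CPM with N642H and at 3.98, 5.23 and 5.98 CPM with Y665F. Against EV the rise passed the test with N642H (3.32, SE 0.37, adjusted p = 0.000421) and Y665F (3.06, SE 0.37, adjusted p = 0.00105). With STAT5B it was 1.34 (SE 0.36, adjusted p = 0.949), which passed with the replicate block (1.37, adjusted p = 0.00473), and with Y665H it was 0.55 (SE 0.37, adjusted p = 1.00).

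Against STAT5B in WT cells, Nppc was higher in every N642H and every Y665F library, by 1.98 (SE 0.34, adjusted p = 0.149) and 1.72 (SE 0.34, adjusted p = 0.503). Neither passed edgeR's test without the block. Both passed with the block (adjusted p = 1.66e-05 and 0.000114) and with DESeq2 (adjusted p = 1.67e-05 and 0.00068). The excess in the libraries that the choice did not use thus depended on the test for its call, and not for its direction. Of all genes, edgeR without the block called 0.00488% and 0% either way in these comparisons. With the block it called 94 and 44 of 20509 genes higher, and DESeq2 called 24 and 12.

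Between backgrounds the Nppc level with N642H was 17.0 ± 1.09 CPM (SD, n = 3) in null cells and 6.04 ± 1.54 CPM in WT cells, and with Y665F 16.2 ± 0.848 and 5.06 ± 1.01 CPM. Even so, the responses against EV were not called different, at -1.13 for N642H (SE 0.49, adjusted p = 0.418) and -1.31 for Y665F (SE 0.49, adjusted p = 0.383). Without EV replicate 3 of the null cells the Y665F difference became -2.07 (adjusted p = 0.0305). Null cells with STAT5B held Nppc 2.27 above WT cells with EV (SE 0.35, adjusted p = 0.000709), beside 0.419% of all genes called higher and 0.359% lower there. Nppc was also the member called higher in null cells with N642H (4.78, SE 0.37, adjusted p = 5.59e-09) and with Y665F (4.71, SE 0.37, adjusted p = 7.55e-09) than in WT cells with EV, beside 0.537% and 0.71% of all genes. The null libraries with STAT5B, N642H and Y665F in these comparisons are those that the choice of Nppc used.

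In splenic T cells and spleens Nppc was not measurable at this depth. The 15 T cell libraries held 7 reads in all and the 16 spleen libraries 3, with at most 2 reads in any library, under the 10 reads that the test required. A count of 0 allows up to 3 reads, which is up to 1.49 CPM in the shallowest T cell library and up to 0.124 CPM in the spleens.

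Of the 10 other genes of the natriuretic peptide system, 1 was higher and 1 lower in null cells with N642H and likewise with Y665F. Beside these, 1.58% and 1.39% of all genes were called higher with N642H and Y665F. Under the alternative of RLE scaling, 236 and 181 of 20113 genes were called lower. The list median was 0.29 with N642H, beside 0.01 over all genes, and -0.44 with Y665F, beside -0.02. The higher gene was Npr3, the clearance receptor, at 0, 0.145 and 0.414 CPM with EV and at 0.975, 1.28 and 0.544 CPM with N642H (2.36, SE 0.74, adjusted p = 0.0464). It was at 1.37, 1.07 and 0.572 CPM with Y665F (2.45, SE 0.74, adjusted p = 0.0444). The lower gene was Ostn, whose peptide osteocrin binds Npr3, which fell by 1.77 with N642H (adjusted p = 0.00373) and by 1.14 with Y665F (adjusted p = 0.0481). Npr2, the receptor for the Nppc peptide, was at 0 to 0.389 CPM in the CD4 libraries. In WT cells with N642H, Furin, a protease that can process the precursor, was 1.20 higher (adjusted p = 0.0223).

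Rai14, like Nppc, was highest with N642H and Y665F. In null cells it was at 5.94, 5.56 and 8.08 CPM with EV, at 9.57, 7.26 and 9.32 CPM with STAT5B, at 28.7, 23.4 and 18.0 CPM with N642H and at 25.8, 23.7 and 20.5 CPM with Y665F. The excess of N642H and Y665F over STAT5B, 1.40 for each, chose the gene and is not tested. Against EV, Rai14 rose by 1.81 with N642H (SE 0.19, adjusted p = 1.33e-05) and by 1.81 with Y665F (SE 0.19, adjusted p = 1.32e-05). Every N642H and Y665F library lay above every EV library. These construct libraries are those that the choice used.

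STAT5B, whose libraries the choice also used, and Y665H did not change Rai14 past the test in null cells. STAT5B differed from EV by 0.41 (SE 0.19, adjusted p = 0.322), with overlapping libraries. Y665H, at 5.87, 5.63 and 4.82 CPM, differed from EV by -0.24 (SE 0.19, adjusted p = 0.908) and from STAT5B by -0.65 (SE 0.19, adjusted p = 0.187), although its 3 libraries all lay below those with STAT5B.

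In WT cells, which the choice did not use, Rai14 was at 13.5, 14.4 and 8.29 CPM with EV, at 44.9, 43.7 and 27.4 CPM with N642H and at 48.5, 45.4 and 21.0 CPM with Y665F. It rose by 1.70 with N642H (SE 0.34, adjusted p = 0.0181) and by 1.67 with Y665F (SE 0.34, adjusted p = 0.0241), and no library of either overlapped EV. Both calls were lost without EV replicate 1, 2 or 3 and without replicate 1 or 2 of the mutant itself, with adjusted p of 0.0609 to 0.0970 for N642H and 0.0800 to 0.133 for Y665F. Replicate 3 was the lowest library in each of these groups.

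STAT5B put Rai14 at 23.6, 27.2 and 13.1 CPM in WT cells, between EV and the 2 mutants. The steps from EV to STAT5B (0.83, SE 0.34, adjusted p = 1.00), from STAT5B to N642H (0.86, SE 0.33, adjusted p = 1.00) and from STAT5B to Y665F (0.84, SE 0.33, adjusted p = 0.998) did not pass the test. The excess over STAT5B that chose Rai14 in null cells was thus not called in WT cells, nor with the replicate block. A difference in response between backgrounds was not called with any construct, at -0.17 for N642H (SE 0.41, adjusted p = 0.946) and -0.17 for Y665F (SE 0.41, adjusted p = 0.955).

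With EV, Rai14 was lower in null than in WT cells by 0.89 on the log2 scale (SE 0.30, adjusted p = 0.0436), and the 2 groups did not overlap. The change was under the minimum of 1 that a call required, and passed that minimum without EV replicate 3 of the WT cells (-1.09, adjusted p = 0.0166) or of the null cells (-1.07, adjusted p = 0.0405). Null cells with Y665H stayed below WT cells with EV (-1.15, SE 0.30, adjusted p = 0.0147), a call lost without Y665H replicate 3 (-1.02, adjusted p = 0.0899) and WT EV replicate 1 (-1.06, 0.0571) or 2 (-0.995, 0.101). Beside it, 1.25% of all genes were called lower. Null cells with N642H or Y665F reached 194% ± 44.3 and 193% ± 22.2 of the WT EV level.

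Among 9 relatives and other actin-binding proteins, only Uaca was called in null cells against EV with N642H or Y665F. Over all genes, 1.58% and 1.39% were called higher with these mutants. Uaca, an ankyrin repeat and coiled-coil protein related to Rai14, was at 0.577, 0.522 and 0.794 CPM with EV and at 1.71, 1.70 and 1.29 CPM with N642H (1.29, adjusted p = 0.0295), and it was 1.41 higher with Y665F (adjusted p = 0.0213). The list medians were -0.16 and -0.14, beside 0.01 and -0.02 over all genes. Of 10 navigators and plus-end proteins, 1 was called across these 2 comparisons, Nav2, a close relative of Nav1, which fell by 1.66 with N642H (adjusted p = 0.0118). Under the alternative of RLE scaling, 236 of 20113 genes were called lower with N642H. The medians of that list were -0.10 and -0.04.

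Ecm1 was the most abundant of the 4 genes in these cells per kilobase of exon, at 26.4 ± 6.98 CPM per kilobase (SD, n = 3) in WT cells with EV beside 2.99 ± 0.613 for Nav1, 1.43 ± 0.390 for Rai14 and 0.577 ± 0.340 for Nppc. With EV it was at 15.97, 33.3 and 22.9 CPM in null cells and at 56.9, 86.9 and 55.9 CPM in WT cells. The groups did not overlap, and Ecm1 was lower in null cells (log2 fold change -1.47, SE 0.39, adjusted p = 0.0106), beside 2.13% of all genes called lower. Leaving out 1 library ended the call for null EV replicate 1 (-1.25, adjusted p = 0.0681) or WT EV replicate 2 (-1.23, adjusted p = 0.0772).

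In null cells Ecm1 was at 40.6, 63.5 and 35.5 CPM with STAT5B, at 46.5, 72.8 and 45.4 CPM with N642H and at 41.2, 77.8 and 32.7 CPM with Y665F. Against EV, the rise passed the test with N642H (1.16, SE 0.35, adjusted p = 0.0375), and not with STAT5B (0.94, SE 0.35, adjusted p = 0.191), Y665F (1.05, SE 0.35, adjusted p = 0.0659) or Y665H (0.41, SE 0.35, adjusted p = 0.911). Replicate 2 was the highest library with EV and with each construct. The N642H call was lost without EV replicate 1 (0.98, adjusted p = 0.135) or 3 (1.14, 0.0748) and without N642H replicate 1 (1.30, 0.0584) or 2 (0.88, 0.187). The Y665F rise was called with the replicate block (1.03, adjusted p = 0.000178) and without Y665F replicate 3 (1.27, adjusted p = 0.0253).

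In WT cells Ecm1 was not called with any construct. It ranged from 46.7 to 196 CPM over the 12 construct libraries, and the change against EV was highest with N642H (1.04, SE 0.36, adjusted p = 0.240), whose libraries stood at 130, 196 and 77.2 CPM. Differences between N642H or Y665F and STAT5B ran from -0.20 to 0.42 over the 2 backgrounds and were not called.

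Set side by side, against EV in null cells edgeR called 2 of the 4 genes higher with unmutated STAT5B, 4 when the vector held N642H, 3 for Y665F and 0 for Y665H, beside 0.358%, 1.58%, 1.39% and 0.0249% of all genes. For Y665H, 1 member, Nav1, had an unadjusted p under 0.05, and DESeq2 called 0 members. In WT cells it called 0 for unmutated STAT5B, 2 for N642H, 2 for Y665F and 0 for Y665H, beside 0.00975%, 0.79%, 0.507% and 0.00488%. DESeq2 called 0 members for STAT5B and Y665H there too, and an unadjusted p under 0.05 was reached by Nppc and Rai14 for STAT5B and by 0 members for Y665H. The genes called in WT cells were Nppc and Rai14 for N642H and for Y665F. Against STAT5B in null cells, Y665H lowered 2, Nav1 and Nppc, beside 0.129% of all genes called lower. N642H and Y665F raised the 2 chosen for that, Nppc and Rai14, beside 0.0696% and 0.00994% of all genes called higher. That rise chose these 2 genes and both shares include them, so it is a description and no evidence. For Y665F, the 2 of 20113 genes called higher are Nppc and Rai14 themselves. The edgeR counts and shares are without the replicate block, though the CD4 libraries were taken to be paired. With it, edgeR also called Ecm1 for Y665F against EV in null cells (1.03, adjusted p = 0.000178). There the block called 341 of 20113 genes higher. It likewise called Nppc for unmutated STAT5B against EV in WT cells (1.37, adjusted p = 0.00473), with 78 of 20509 genes called higher. These comparisons share control libraries, so their counts are not independent.

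No member was called between Y665F and N642H. In null cells the difference, Y665F minus N642H, was -0.14 (SE 0.40) for Nav1, -0.06 (SE 0.26) for Nppc, 0.00 (SE 0.18) for Rai14 and -0.11 (SE 0.34) for Ecm1. In WT cells it was -0.55 (SE 0.27), -0.26 (SE 0.33), -0.03 (SE 0.33) and -0.62 (SE 0.36). All 8 adjusted p-values were 1.00. Over all genes edgeR and DESeq2 also called 0 (0%) between these constructs in either background, with 181 and 456 genes at an unadjusted p under 0.05 by edgeR. None of the 8 had an unadjusted p under 0.05. The SE was highest for Nav1 in null cells, so a difference between the mutants is least well bounded there.

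**Figure D2:**
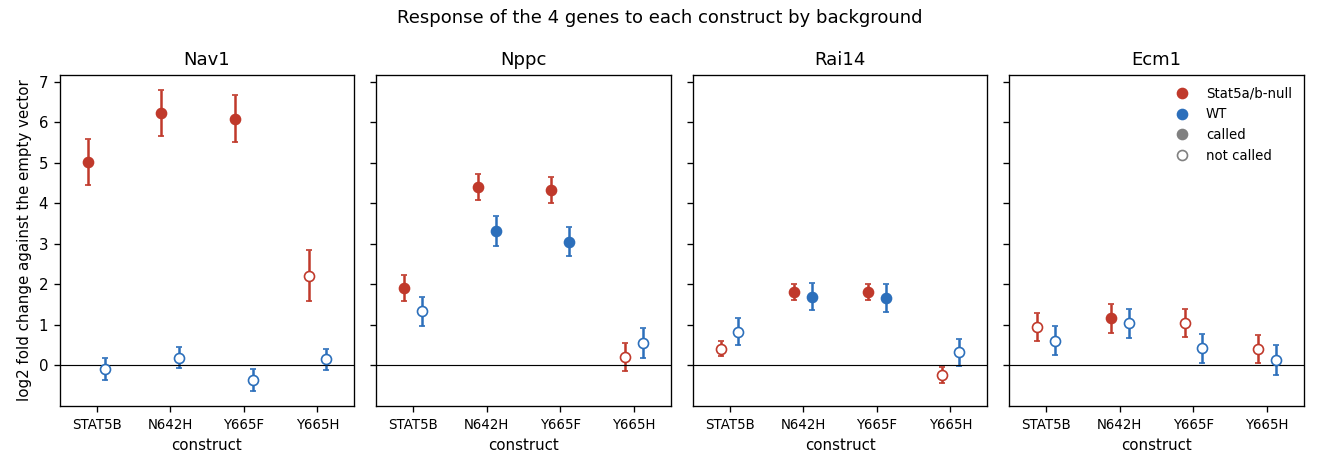
Log2 fold change of each construct against EV for the 4 genes, with Stat5a/b-null cells in red, WT cells in blue, bars for 1 SE and filled points for changes that passed the test. Nav1 responds in null cells, at 5.01 to 6.23 with STAT5B, N642H and Y665F, and lies between -0.36 and 0.19 in WT cells, whereas N642H and Y665F raise Nppc by 3.06 to 4.40 and Rai14 by 1.67 to 1.81 in both.

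Socs2 and Cish, feedback inhibitors and reference targets of STAT5, gave the scale of the constructs. In null cells Socs2 was at 2.86 to 7.25 CPM with EV and at 238 to 330 CPM with N642H, and Cish was 3.84 higher with N642H (adjusted p = 7.05e-07). All 9 reference targets were lower in null than in WT cells with EV, with a median of -3.17, and 7 rose with STAT5B, 9 with N642H, 9 with Y665F and 1, Socs2, with Y665H. In WT cells with N642H or Y665F 1 of the 9 rose, Lta, the gene of lymphotoxin alpha (2.03 and 1.98, adjusted p = 0.0385 and 0.0492). There 0.79% and 0.507% of all genes were called higher. The loss of Nav1 in null cells is what chose it and is no likeness to these targets by itself.

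Across the 30 CD4 libraries, the genes whose log2(CPM + 1) was most like that of each member were drawn from the 11459 genes averaging 1 CPM or more. For Nav1 they were Kcnk5 (Pearson r = 0.985), 6430571L13Rik (0.976), Il4ra (0.974), Coro2a (0.974) and Abi3bp (0.970). Il4ra encodes the IL-4 receptor alpha chain and Kcnk5 a potassium channel. For Nppc they were Ccl3 (0.921), a chemokine, Bcat1 (0.901), an enzyme of branched-chain amino acid breakdown, Nrp2 (0.883), Avpr1a (0.861), the vasopressin V1a receptor, and Phldb2 (0.841). For Rai14 they were Slco3a1 (0.966), Txnrd1 (0.959), Pde1a (0.955), Orc1 (0.953) and Iars (0.950), and for Ecm1 Pgs1 (0.936), C2cd2l (0.927), Ifitm3 (0.919), Irs2 (0.918) and Fam19a3 (0.912). The libraries share backgrounds, constructs and replicate numbers, so these correlations are descriptions.

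Among the 4 genes, Nav1 and Ecm1 were most alike over the 30 libraries (r = 0.810), then Nav1 and Rai14 (0.742), Rai14 and Ecm1 (0.705) and Nppc and Rai14 (0.587). Nppc had little in common with Nav1 (0.245) or Ecm1 (0.164). The order of groups differed in the same way. Nav1 and Ecm1 had their 5 highest group means in the 5 WT groups, whereas Nppc was highest in null cells with N642H and Y665F, and Rai14 was highest in WT cells with those mutants, followed by null cells with them. Neighbouring groups overlapped throughout the order for Ecm1 and Rai14. For Nav1, breaks without overlap lay below WT Y665F, below null STAT5B and below null Y665H, and for Nppc below null Y665F, WT Y665F, null STAT5B and WT STAT5B.

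In splenic T cells of the mutant mice, Ecm1 differed with genotype and with interleukin, and per kilobase of exon it exceeded Nav1 in each group, at a mean of 131 beside 0.242 CPM per kilobase in WT with interleukin and 2.43 beside 0.444 in Y665F without. With IL-2 and IL-7 it was at 264, 359, 496 and 202 CPM in WT, at 68.2, 92.3, 82.3 and 78.4 CPM in Y665H and at 302, 274, 75.6 and 175 CPM in Y665F libraries. The fall in Y665H, -2.04 against WT, chose the gene, and the highest Y665H library lay below the lowest WT library. Beside it, 0.0448% of all genes were called lower, which is 10 of 22313 with Ecm1 among them. Because this fall chose Ecm1, the share is a description and no evidence. The 8 T cell markers summed to 2065 to 2299 CPM in Y665H and 2326 to 3058 CPM in WT, and the neutrophil markers to 22.6 to 72.1 and 6.27 to 13.3 CPM, without overlap in either. The neutrophil gene S100a8 was called higher in Y665H, and the part of these cells in the Ecm1 difference was not tested.

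The Y665F libraries were not used in that choice, though the comparison with Y665H uses the same Y665H libraries. Ecm1 was higher in Y665F than in Y665H by 1.37 (SE 0.31, adjusted p = 0.00764), in 3 of 4 libraries above every Y665H library. The exception was Y665F replicate 3, with 2851451 reads on genes the shallowest of that group. Its T cell markers summed to 1127 CPM, the lowest of the group, and its B cell, erythroid and neutrophil markers to 660, 1076 and 295 CPM. The part of depth and of these cells in its Ecm1 level was not tested. Y665F did not differ from WT past the test (-0.67, SE 0.30, adjusted p = 0.206). Without the 3 libraries under 5000000 reads, 2 of Y665H and this 1 of Y665F, Ecm1 was 1.69 higher in Y665F than in Y665H (adjusted p = 0.00262), and stood at -2.06 in Y665H against WT on the log2 scale, an alternative chosen after seeing the data.

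Without interleukin, Ecm1 was low in Y665F T cells, at 6.53, 5.42 and 6.44 CPM. It was 5.08 higher with IL-2 and IL-7 on the log2 scale (SE 0.41, adjusted p = 2.48e-07), a ratio of means of 33.7, with no overlap even for the shallow library. Beside it, 2.27% of all genes were called higher with interleukin, all 9 STAT5 reference targets among them. The groups also differ in the 24 h of culture, whose part cannot be told apart from that of the interleukins. The 5 Th2 markers, listed because of the known link of Ecm1 to Th2 cells, summed to 28.6 to 37.1 CPM in WT, 19.4 to 33.0 CPM in Y665H and 39.1 to 49.0 CPM in Y665F libraries with interleukin, and to 47.2, 76.4 and 54.0 CPM in the Y665F libraries without it, where Ecm1 was lowest. Their part in the Ecm1 differences was not tested. In null CD4 T cells 2 of them, Il4 and Il13, named after their values were seen, were called higher with N642H and with Y665F. The shares of all genes called higher there were 1.58% and 1.39%. In whole spleens, unstimulated, Ecm1 stood at 7.85 to 18.2 CPM.

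Ecm1 was set beside 8 genes of lymphocyte egress. S1pr1, the receptor for sphingosine 1-phosphate that guides egress, was lower in Y665F than in WT T cells (log2 fold change -1.08, adjusted p = 0.0364) and than in Y665H (-1.11, adjusted p = 0.0137). It was lower in WT CD4 T cells with N642H (-1.13, adjusted p = 0.0341) and Y665F (-1.28, adjusted p = 0.0219) than with EV. Of the 8 genes of this list, 1 was higher and 2 lower in Y665F against WT T cells, the higher being Mmp9 (3.31, adjusted p = 0.00170), a matrix protease abundant in neutrophils. The lower genes were S1pr1 and S1pr4 (-1.60, adjusted p = 0.0264). Against Y665H, 2 of the 8 were higher in Y665F, Mmp9 (3.71, adjusted p = 0.000242) and Cd69 (1.45, adjusted p = 0.000974), an inhibitor of S1pr1, and 2 lower, S1pr1 and S1pr4 (-1.53, adjusted p = 0.0148). Of all genes, 1.15% were called higher in Y665F than in WT and 3.43% than in Y665H. The shares called lower are not given here. T cell markers summed to 1127 to 2752 CPM in Y665F and 2326 to 3058 CPM in WT, with a list median of -0.79 and 1 called lower, Cd4 (-1.16, adjusted p = 0.0291), named after its values were seen, and their part in the S1pr1 and S1pr4 differences was not tested. Neutrophil markers summed to 68.6 to 295 CPM in these Y665F libraries and 6.27 to 13.3 CPM in WT, and their part in the Mmp9 difference was not tested.

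Nav1 was raised in Y665F T cells. It was at 5.57, 3.31, 3.79 and 4.07 CPM in WT, at 1.43, 3.89, 4.87 and 2.37 CPM in Y665H and at 6.48, 14.9, 10.98 and 12.3 CPM in Y665F libraries with interleukin. All 4 Y665F libraries lay above every WT and every Y665H library. Nav1 was higher in Y665F than in WT by 1.42 (SE 0.35, adjusted p = 0.0336) and than in Y665H by 1.78 (SE 0.37, adjusted p = 0.00494), while Y665H and WT were not called different (-0.36, SE 0.37, adjusted p = 0.781).

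The call against WT was lost without WT replicate 2, 3 or 4 and without Y665F replicate 2, 3 or 4, with log2 fold changes of 1.24 to 1.43 and adjusted p of 0.0608 to 0.125. The counts behind it were small, 62 to 92 reads in WT and 36 to 211 in Y665F. Without the 3 shallow libraries Nav1 was 1.46 higher in Y665F than in WT (adjusted p = 0.0238) and 1.62 higher than in Y665H (adjusted p = 0.0509). Beside the 2 calls, 1.15% and 3.43% of all genes were called higher in Y665F than in WT and in Y665H. Markers of other cells differed between libraries. The 6 B cell markers summed to 17.1, 27.0, 660 and 180 CPM in Y665F and 10.03 to 85.1 CPM in WT, and the 6 erythroid markers to 6.53, 14.9, 1076 and 84.4 and to 5.77 to 36.7 CPM, so that replicates 3 and 4 of Y665F lay above WT and 1 and 2 within it. Neutrophil markers were above WT in all 4 Y665F libraries, macrophage markers summed to 27.8 to 44.4 and 30.4 to 43.5 CPM, and the 6 endothelial and stromal markers summed to 165 to 244 and 295 to 350 CPM, with Pecam1, which T cells also express, making up nearly all of the last. Cdh5, a defining endothelial marker, was at 0.212 to 0.777 CPM in Y665F and 0.328 to 0.618 CPM in WT. The part of these cells in the Nav1 difference was not tested.

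Nav1 was not called between Y665F T cells with and without interleukin, and the latter held 9.85, 8.25 and 4.96 CPM (0.54 higher with interleukin, SE 0.37, adjusted p = 0.463). Rai14 was low in all splenic T cells, from 0.333 to 5.65 CPM or 3 to 80 reads. Its difference between Y665F and WT was 1.46 (SE 0.56, adjusted p = 0.151), with overlapping libraries.

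**Figure D3:**
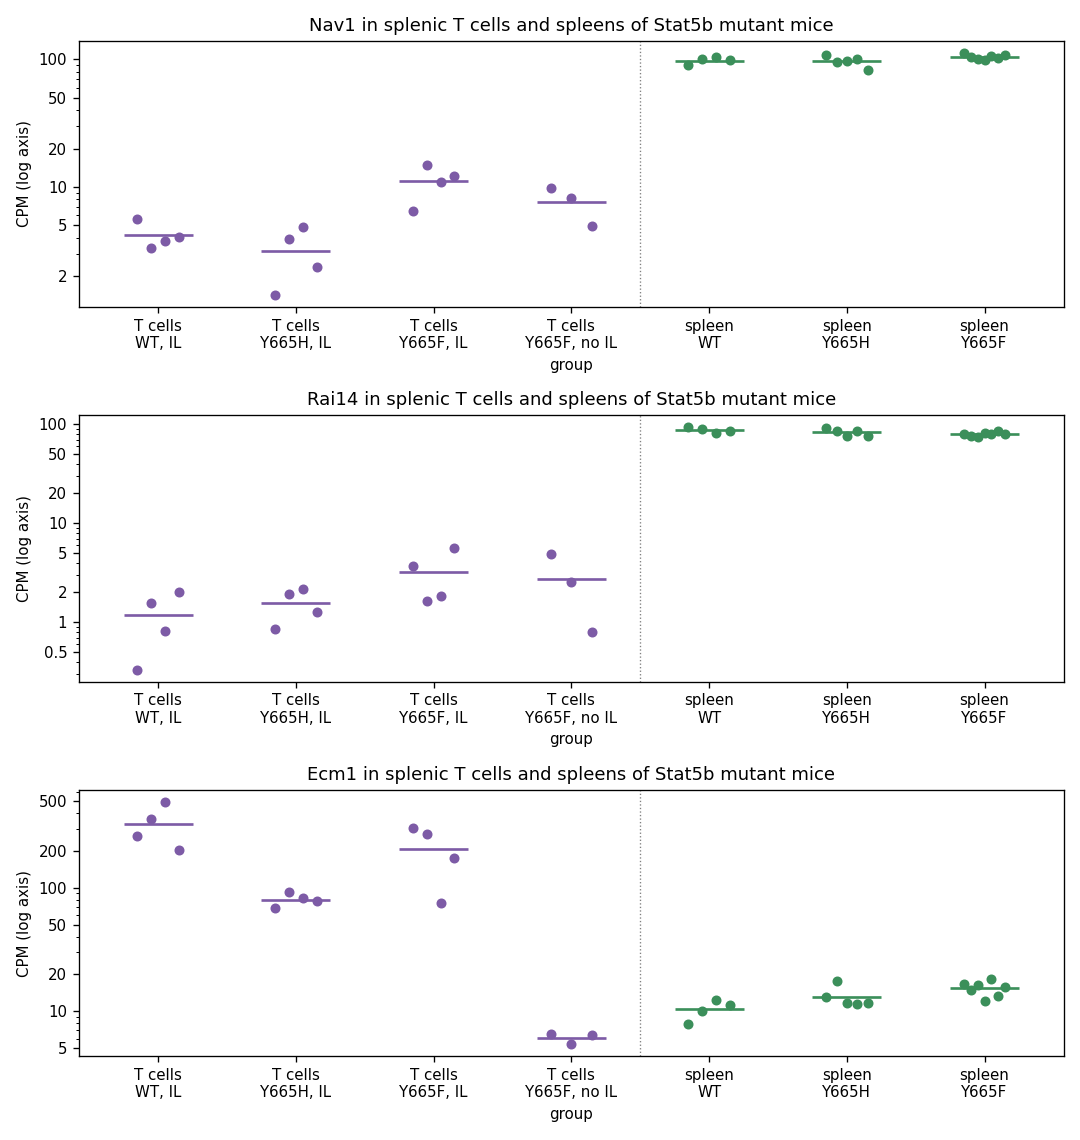
CPM of Nav1, Rai14 and Ecm1 on log axes in splenic T cells (purple) and whole spleens (green), with genotype and interleukin (IL) on the horizontal axis, points for libraries and lines for group means. T cell and spleen libraries were scaled separately. Ecm1 lies at 5.42 to 6.53 CPM in Y665F T cells without interleukin. Nav1 in Y665F T cells with interleukin, at 6.48 to 14.9 CPM, lies above WT and Y665H T cells. The 3 spleen groups lie close together for Nav1 and Rai14.

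In whole spleens edgeR called 0 of the 3 testable genes, beside 4.37% of all genes called either way in Y665H against WT, 1.2% in Y665F against WT and 5.28% in Y665F against Y665H. DESeq2 called 0 as well. An unadjusted p under 0.05 was reached by Ecm1 in Y665H and by Ecm1 and Rai14 in Y665F against WT. Nav1 ran from 82.9 to 113 CPM over the 16 libraries and Rai14 from 74.9 to 93.1 CPM, with group medians close together and overlapping ranges in each. The Nav1 differences from WT were -0.02 (SE 0.07, adjusted p = 0.898) in Y665H and 0.10 (SE 0.07, adjusted p = 0.330) in Y665F, and those of Rai14 -0.07 (SE 0.07, adjusted p = 0.474) and -0.14 (SE 0.06, adjusted p = 0.154). Spleens also held endothelial and stromal markers at 573 to 708 CPM, with Cdh5 at 36.2 to 57.4 CPM.

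Ecm1 in spleens was at 7.85, 10.05, 12.4 and 11.2 CPM in WT and at 13.02, 17.4, 11.6, 11.4 and 11.7 CPM in Y665H. In Y665F it ran from 12.0 over a median of 15.8 to 18.2 CPM, with 6 of 7 libraries above every WT library. The difference of Y665F from WT, 0.56 (SE 0.14, adjusted p = 0.0177), passed the p threshold but not the fold-change minimum, and that of Y665H was 0.33 (SE 0.15, adjusted p = 0.138). T cell markers summed to 794 to 1043 CPM in Y665F and 627 to 723 CPM in WT, megakaryocyte markers to 95.6 to 149 and 46.3 to 88.5 CPM, and neutrophil markers to 384 to 940 and 193 to 314 CPM. The 5 Th2 markers summed to 18.3 to 21.6 CPM in Y665F, 9.20 to 11.6 in WT and 6.32 to 10.4 in Y665H, and 1, Ccr8, was called higher in Y665F than in WT (1.34, adjusted p = 0.0233). Their part in the Ecm1 difference was not tested.

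Over 32 comparisons, and leaving out those that chose a gene or could not be tested, Nav1 was called in 11 of 31, Nppc in 9 of 23, Rai14 in 5 of 30 and Ecm1 in 4 of 31. For each gene these include comparisons that share libraries with its choice, so the counts are descriptions and no separate evidence. A share of all genes over the 32 comparisons together was not computed. All calls of Nppc and Rai14 were in CD4 T cells, whereas those of Nav1 and Ecm1 lay in CD4 and in splenic T cells.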

How the data were processed

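The deposited files hold raw counts per gene, 1 file per library, which the authors made per the labels and methods by Trimmomatic 0.36, STAR alignment to mm10 and HTSeq 0.9.1 from TruSeq Stranded libraries. Whether strand was used in counting is not given in the sources used here. HTSeq's 5 closing lines, which name no gene, were left out: the lines held 28.4% to 85.7% of reads. In splenic T cells with interleukin they held 63.9% to 72.6% in WT, 68.7% to 71.9% in Y665H and 67.6% to 84.0% in Y665F. In Y665F T cells without interleukin they held 77.7% to 85.7%. The part of this share in the T cell differences was not tested. The extraction label names mammary tissue, while the methods name spleen and T cells.

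Counts were fitted with edgeR 4.0.16 in R 4.3.3 (TMM scaling, quasi-likelihood test), separately for null CD4 (15 libraries, 20113 genes with at least 10 reads), WT CD4 (15, 20509), both (30, 21975), splenic T cells (15, 22313) and spleens (16, 19418). P-values were adjusted over all genes of a fit by Benjamini-Hochberg, and a gene was called at an adjusted p under 0.05 with a log2 fold change beyond 1. SE was taken as the log2 fold change over the root of the F statistic. The authors used DESeq2 with RUVSeq, and no RUVSeq factors were used here. Alternatives were RLE scaling, DESeq2 1.42.0, other filters, the 2 groups alone, no fold-change minimum, a replicate block and leaving out each library. The scripts were tested on simulated counts.

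The named genes are the 4 members, the 5 genes most alike to each, of each list the called genes with the 2 largest rises and 2 largest falls per comparison, and Stat5a, Stat5b, Socs2 and Cish. Npr2, Pecam1, Cdh5, Il4, Il13, Cd4 and S100a8 were added after their values were seen. The members and lists were chosen with earlier results of these data known. RefSeq promoter windows and GENCODE M21 gave sequences and positions.

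Replicate numbers were checked for pairing by correlating deviations from group means. Over genes averaging 1 CPM or more, 30 of 30 same-numbered pairs exceeded 0.1 in null CD4 and 30 of 30 in WT CD4 cells, but over all filtered genes 14 and 20 did. At minimums of 5 and 10 CPM, 30 and 29 did in null and 29 and 29 in WT cells. The CD4 libraries were therefore taken to be paired within a background. The main tests nevertheless used no block, and blocked values stand beside calls they change. Shares of all genes are also without the block. With it, 78 genes were called higher for STAT5B against EV in WT cells, beside 2 without. Between null and WT libraries 34 of 75 such pairs exceeded 0.1. In splenic T cells 6 of 21 pairs and in spleens 4 of 13 exceeded 0.1 at 1 CPM, so these share only a number. Intervals for counts of 0 cover counting error only.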

Additional observations from a re-analysis of the deposited data

Results flagged for a closer look

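Ecm1 in Y665H spleen replicate 2, at 17.4 CPM, lay apart from the other 4 libraries of its group, at 11.4 to 13.02 CPM, with the gap to the nearest covering 0.737 of the range. It was the 1 library so marked among 18 sets of 4 to 7 libraries examined, and chance alone marks about 1 in 20.

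The Nav1 response to STAT5B, N642H and Y665F differed between WT and Stat5a/b-null CD4 T cells in the interaction test, by -5.12 (adjusted p = 9.60e-05), -6.09 (2.45e-06) and -6.49 (8.42e-07) on the log2 scale by edgeR. The EV difference between the backgrounds that chose Nav1 is a term of each, so these values are a description.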

How the results depend on the processing

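Of 1760 values of the 4 genes under the alternatives, none changed direction with a call, 1702 kept their side of the call, 38 lost it and 20 gained it, and 39 of these 58 changes came from leaving out 1 library. For the comparisons that chose a gene only the direction was checked, not the call. Their values are counted among the 1702. RLE scaling and filterByExpr changed no call. The replicate block, in the null and WT CD4 libraries, raised to a call Ecm1 with Y665F against EV (1.03) and Nav1 with N642H against STAT5B (1.25) in null cells, and Nppc with STAT5B against EV (1.37), N642H against STAT5B (1.97) and Y665F against STAT5B (1.73) in WT cells. Against WT cells with EV it did so for null cells in Nav1 with N642H (-1.19, adjusted p = 0.0143) and Y665F (-1.36, 0.00425) and in Ecm1 with Y665H (-1.08, 0.00134), but between the backgrounds 34 of 75 same-numbered pairs exceeded 0.1, so there the libraries share only a number. In splenic T cells, where the numbers do not pair the libraries, the block ended the Nav1 call of Y665F against WT (1.39, adjusted p = 0.108). No other call of the members changed with the block. DESeq2 called Nppc in WT cells with N642H (1.98) and Y665F (1.73) against STAT5B, and Nav1 in null cells with Y665F against WT cells with EV (-1.31, adjusted p = 0.0414). No filter on low counts called Ecm1 with Y665F against EV (1.04), and fitting the groups alone ended the Nppc call with STAT5B (1.89) in null cells and called, against WT cells with EV, Nav1 in null cells with N642H (-1.15, adjusted p = 0.0228) and Ecm1 with Y665H (-1.02, 0.0309). Without a fold-change minimum, Ecm1 in Y665F spleens (0.56) and Rai14 in null against WT cells with EV (-0.89) passed. Without the shallow T cell libraries the Nav1 difference of Y665F from Y665H (1.62) missed the threshold. With a pseudocount of 0.1 CPM, Cish (0.978) and Il2ra (0.974) entered the 5 genes most like Nav1, and 1 gene each changed for Nppc and Ecm1. Over the 10 group means instead of 30 libraries, 3 of the 5 genes changed for Nav1, 4 for Nppc, 4 for Rai14 and 5 for Ecm1. The cause of these changes was not tested.

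For comparisons in which leaving out 1 library changed a call, the ranges here cover every library left out in turn. In null against WT cells with EV, Ecm1 ran from -1.77 to -1.23 and Rai14 from -1.09 to -0.74. Against EV in null cells, Ecm1 ran from 0.88 to 1.48 with N642H and from 0.63 to 1.37 with Y665F. Nppc ran from 1.55 to 2.64 with STAT5B there. With Y665H against STAT5B in null cells, Nav1 ran from -3.13 to -2.48 and Nppc from -1.80 to -1.55. Rai14 in null cells with Y665H against WT cells with EV ran from -1.33 to -0.995. The Nppc difference in Y665F response between backgrounds ran from -2.07 to -0.68. In WT cells, Rai14 ran from 1.48 to 1.89 with N642H and from 1.46 to 1.95 with Y665F. Nav1 in Y665F against WT T cells ran from 1.24 to 1.64. With 3 or 4 libraries a group, and few reads of Nppc and of Rai14 in splenic T cells, changes near the threshold rest on single libraries.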
